A study of Mus musculus with 12 samples.

Results

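Plasminogen activation is the extracellular system in which 2 serine proteases cut the inactive proenzyme plasminogen into plasmin. Its 6 genes described here were Plau (urokinase), Plat (tissue plasminogen activator), Plaur (the urokinase receptor) and the serpins Serpine2, Serpinb2 and Serpinf1. They were chosen by gene symbol from the 55487 genes measured by RNA sequencing in cultured mouse mammary fibroblasts, and each matched 1 gene. The cells were 1 primary line from the mammary fat pad of a single healthy B6 animal, so the values describe that line. The series asks how fibroblasts made senescent by DNA damage or by oxidation differ from normal ones.

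The doxorubicin group was exposed for 24 h to 100 nM of this drug, which poisons topoisomerase and breaks DNA, and its RNA was taken on day 7. Its vehicle group was given water and harvested on the same day. The peroxide group had 3 exposures of 2 h to 750 uM hydrogen peroxide, an oxidant, each followed by 48 h without it, and its RNA was taken on day 6. Its vehicle group was given water and harvested on that day. Each of the 4 groups held 3 libraries. Per the labels, vehicle cells were passaged to hold their density, which is not said of treated cells, so passaging and treatment cannot be told apart. Whether a group's libraries came from separate cultures is not stated, and the p-values therefore reflect a spread among libraries that may be technical.

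Urokinase and tissue plasminogen activator differ in where they act. Urokinase binds a lipid-anchored receptor that holds proteolysis at the cell surface, whereas tissue plasminogen activator binds fibrin. Serpins are inhibitors that trap their protease in a covalent complex. Serpine2 (protease nexin) inhibits thrombin, plasmin and both activators, and is held at the surface by heparan sulfate. Serpinb2 inhibits both activators and is largely kept inside the cell. Serpinf1 (pigment epithelium-derived factor) has the serpin fold but inhibits no protease, and is known as an antiangiogenic secreted protein. Activators, their receptor and serpins are recurring components of the secretions and the surface of senescent fibroblasts.

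Values are CPM (counts per 1e+06 reads assigned to genes). Estimated depth was 17.3 to 37.6 M (1e+06) reads per library, and 3 reads, the most that a value of 0 allows, corresponded to 0.0798 to 0.173 CPM. These limits cover counting error only. Fold changes are differences of log2(CPM + 1), given with their standard error (SE), from a limma fit over 13280 genes with p-values adjusted over all of them and a threshold of 0.05. Peroxide replicate 2 and doxorubicin vehicle replicate 3 stood apart from the other libraries of their groups. Results resting on them are given with and without them. Doxorubicin replicate 1 also deviated, with Pearson correlations of 0.9915 and 0.9951 to the others of its group, which correlated at 0.9969. The 2 libraries said below to stand apart do not include it, and a fit without all 3 was also run. Markers of fibroblasts were present in every library, with all 10 of 10 tested and a summed level of 9282 to 13795 CPM in doxorubicin-treated cells, 7916 to 8781 CPM in their vehicle cells, 9553 to 11013 CPM in peroxide-treated cells and 7477 to 8998 CPM in theirs. All 4 of 4 proliferation markers were lower in both treated groups, with a summed level of 225 to 262 CPM after doxorubicin against 800 to 857 CPM in vehicle, and 482 to 491 CPM after peroxide against 1235 to 1307 CPM in vehicle.

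Both activators and both inhibitory serpins rose after either treatment. Neither the receptor nor Serpinf1 was called higher after either one. Serpinf1 still lay above its vehicle in all doxorubicin libraries, where 59.7% of tested genes had no overlap. It was called higher there in 5 of 27 alternatives. After doxorubicin 4 of the 6 genes were called higher and 0 lower, where 49.9% of all tested genes were called, 22.1% higher and 27.8% lower. After peroxide 4 were called higher and 1 lower, where 50.7% of all genes were called, 27.3% higher and 23.4% lower. The same 4 genes rose in both comparisons, whereas 13% of tested genes did. The median log2 fold change over the 6 genes was 1.38 after doxorubicin and 0.93 after peroxide, against -0.03 and -0.01 over all tested genes. Serpinb2 reached the expression filter only through its treated libraries, so the filter favoured its rise. Its calls, here and in the difference between the effects, add nothing to these counts or medians. In bulk RNA, a change in the share of cells that express a gene and a change in RNA per cell cannot be told apart.

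**Figure D1:**
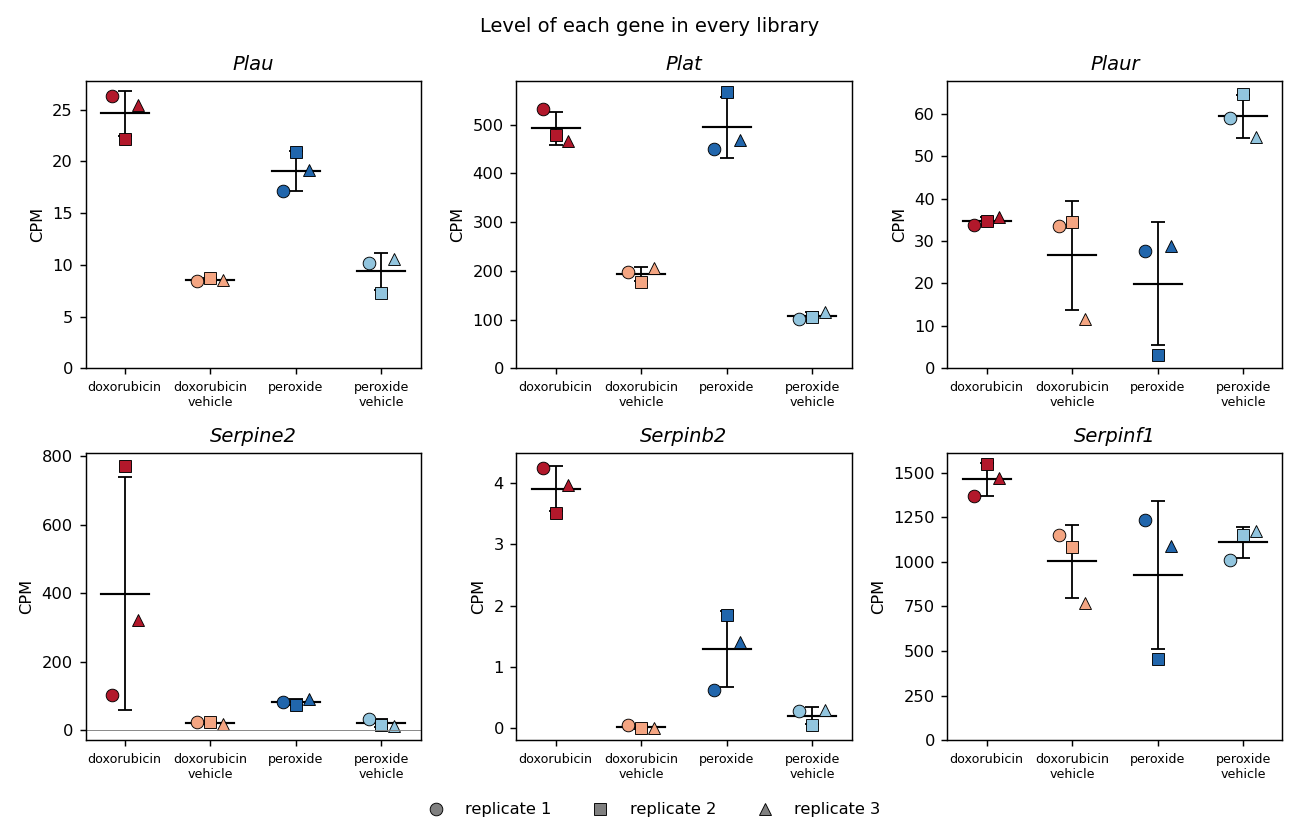
Level of each gene in CPM (linear axes, with a separate range per gene) in the 12 libraries; symbols mark replicates, horizontal lines the group mean and bars the SD of 3 libraries. Plau, Plat, Serpine2 and Serpinb2 lie higher in each treated group than in its own vehicle, while Plaur and Serpinf1 have their lowest value in peroxide replicate 2.

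Promoter sequences were available for Plaur, Serpine2, Serpinb2 and Serpinf1, from the RefSeq table of GRCm38.p6, each covering 250 bases before and 50 after the annotated start. The sequences of the 3 genes that changed in at least 1 treatment are shown because their transcripts moved differently: Serpine2 and Serpinb2 rose, and Plaur fell after peroxide. Capitals mark matches on either strand to 4 motifs. The TATA box was searched as TATAAA. The AP-1 site was searched as TGAGTCA. The GC box was searched as GGGCGG. The last was the CCAAT box, searched by those letters. Neighbouring GC boxes can abut or share bases. They lie at chr1:79858616-79858915 (minus strand, Serpine2), chr1:107511173-107511472 (plus strand, Serpinb2) and chr7:24462233-24462532 (plus strand, Plaur).
Serpine2: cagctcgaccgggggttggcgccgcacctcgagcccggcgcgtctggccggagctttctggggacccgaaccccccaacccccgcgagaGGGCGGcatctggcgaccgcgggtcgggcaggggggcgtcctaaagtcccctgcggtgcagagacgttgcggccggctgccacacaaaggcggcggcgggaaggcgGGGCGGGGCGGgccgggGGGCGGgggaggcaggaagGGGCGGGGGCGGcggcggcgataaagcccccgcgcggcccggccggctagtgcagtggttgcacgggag
Serpinb2: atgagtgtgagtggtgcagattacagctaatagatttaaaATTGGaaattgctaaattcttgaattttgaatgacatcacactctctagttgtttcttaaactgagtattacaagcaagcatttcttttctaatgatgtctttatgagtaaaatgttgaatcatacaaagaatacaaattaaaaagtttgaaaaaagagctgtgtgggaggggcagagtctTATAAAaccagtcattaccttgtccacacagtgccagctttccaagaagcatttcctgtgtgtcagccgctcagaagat
Plaur: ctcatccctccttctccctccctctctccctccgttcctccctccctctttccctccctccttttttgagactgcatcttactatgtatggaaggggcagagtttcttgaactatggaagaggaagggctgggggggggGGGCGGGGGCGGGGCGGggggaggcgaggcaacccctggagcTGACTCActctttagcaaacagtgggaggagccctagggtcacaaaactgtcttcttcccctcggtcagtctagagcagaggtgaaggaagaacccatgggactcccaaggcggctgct

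The promoters differed in composition. Serpine2 had 77.7% GC, 41 CpG dinucleotides and 6 GC boxes, at the 97.9th percentile of GC content among 32817 promoters. By contrast, Serpinb2 had 35.3% GC and 1 CpG, with a TATA box starting 29 bases before the start and an inverted CCAAT box. Plaur had 59.3% GC with 3 GC boxes and an AP-1 match, TGACTCA, starting 69 bases before the start. The Serpinf1 promoter, not printed, had 50.7% GC and 3 CCAAT boxes. Of all promoters, 13.6% held a TATA box, 5.2% an AP-1 site, 35.6% a GC box, 37.4% a CCAAT box and 3.43% an interferon response element. These matches describe letters and show nothing about binding.

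Plau, on chromosome 14 (mm10, 20836660 to 20843385, plus strand), encodes urokinase. Its level was 26.3, 22.2 and 25.4 CPM after doxorubicin, against 8.49, 8.75 and 8.52 CPM in vehicle. Every doxorubicin library was thus well above every vehicle library, as 59.7% of tested genes had no overlap in 1 direction or the other. The mean of 24.7 ± 2.15 CPM against 8.58 ± 0.146 CPM (SD, n = 3 each) was a 2.87-fold difference, with a log2 fold change of 1.42 ± 0.13 (limma adjusted p = 6.5e-06). After peroxide it measured 17.1, 20.9 and 19.2 CPM, against 10.2, 7.29 and 10.6 CPM in vehicle. Again no library overlapped, as in 59.9% of tested genes, and the mean was 2.04-fold higher, with a log2 fold change of 0.97 ± 0.13 (limma adjusted p = 0.000113). Both groups of vehicle cells overlapped and sat below both treated groups. Doxorubicin libraries were all above peroxide libraries, a separation whose share over all tested genes was not counted. The test of the difference between the 2 effects, 0.45 ± 0.19 log2 units, missed the threshold (limma adjusted p = 0.0855). That difference passed without peroxide vehicle replicate 2, the lowest Plau library of its group (0.60, limma adjusted p = 0.0201), and with array weights (0.49, limma adjusted p = 0.0311).

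Plat, on chromosome 8 (mm10, 22757727 to 22782844, plus strand), encodes tissue plasminogen activator. It had 531, 479 and 466 CPM after doxorubicin, against 197, 178 and 205 CPM in vehicle. After peroxide it had 450, 566 and 468 CPM, against 101, 106 and 116 CPM in vehicle. All treated libraries were above all vehicle libraries, and the treated groups reached the same range. Of all tested genes 59.7% had no overlap with vehicle after doxorubicin and 59.9% after peroxide. The doxorubicin mean of 492 ± 34.2 CPM was 2.54-fold above 194 ± 13.8 CPM in vehicle, a log2 fold change of 1.34 ± 0.10 (limma adjusted p = 8.3e-07). For peroxide the mean of 495 ± 62.1 CPM was 4.60-fold above 108 ± 7.73 CPM in vehicle, a log2 fold change of 2.19 ± 0.10 (limma adjusted p = 2.47e-08). Only 1.62% of tested genes changed more in that comparison. The effects of the treatments differed by -0.84 ± 0.14 log2 units, doxorubicin minus peroxide (limma adjusted p = 0.00148). In that test 33.6% of all genes were called, 13.5% higher and 20.1% lower for doxorubicin. The treated groups overlapped in level, whereas the vehicle groups did not, as in 52.2% of tested genes: day 7 vehicle was 1.80-fold above day 6 vehicle, with a log2 fold change of 0.84 ± 0.10 (limma adjusted p = 0.000131). It was the only one of the 6 genes called between the vehicles, higher on day 7, where 28% of genes were called, 15.1% higher and 12.9% lower. Day, passaging and experiment cannot be told apart in that comparison.

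Endothelial cells are a well-known source of tissue plasminogen activator, and 1 of 8 endothelial markers, Tek, was tested. The summed level of the 8 was 34.6 to 45.2 CPM after doxorubicin against 12.5 to 16.4 CPM in vehicle, and 22.9 to 28.2 CPM after peroxide against 5.67 to 9.54 CPM in vehicle. Tek alone averaged 36.2 CPM after doxorubicin and 13.6 CPM in vehicle, and 24.9 CPM after peroxide and 7.34 CPM in vehicle. The endothelial marker Cldn5 was at 0 in all libraries, and Cdh5 at 0 in both vehicle groups and in the peroxide group. Tie1 was at 0 in both vehicle groups, and Emcn in doxorubicin vehicle. The part of such cells in the Plat result was not tested.

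Plaur, on chromosome 7 (mm10, 24462484 to 24475968, plus strand), encodes the urokinase receptor, a surface protein used as a target on senescent cells. After doxorubicin it had 33.7, 34.6 and 35.6 CPM, against 33.6, 34.5 and 11.7 CPM in vehicle. The 3 doxorubicin libraries were within 1.06-fold of each other and at the level of 2 vehicle libraries, with vehicle replicate 3 far below. The means were 34.7 ± 0.965 CPM and 26.6 ± 12.9 CPM (SD, n = 3 each), and the log2 fold change of 0.51 ± 0.64 missed the threshold (limma adjusted p = 0.527, 95% interval -0.89 to 1.91). Without the 2 libraries that stood apart it was 0.03 (limma adjusted p = 0.82).

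After peroxide Plaur had 27.7, 3.21 and 28.9 CPM, against 59.0, 64.6 and 54.5 CPM in vehicle. All peroxide libraries lay below all vehicle libraries, where 59.9% of tested genes had no overlap, and replicate 2 lay far below the others. The means were 19.9 ± 14.5 CPM and 59.4 ± 5.06 CPM (SD, n = 3 each), a log2 fold change of -1.97 ± 0.64 (limma adjusted p = 0.0232). Without peroxide replicate 2 the log2 fold change was -1.04 (limma adjusted p = 0.0309), and without both libraries that stood apart it was -1.04 ± 0.08 (limma adjusted p = 5.04e-06). These 2 were chosen after the data were seen and are the lowest for Plaur in their groups. Leaving them out thus narrows its spread, and the small p-value carries that limit. The call was lost without peroxide vehicle replicate 1 (limma adjusted p = 0.0551) and without peroxide vehicle replicate 2 (limma adjusted p = 0.0634), with log2 fold changes of -1.98 and -1.91. The difference between the effects, 2.49 ± 0.90 log2 units, just missed the threshold (limma adjusted p = 0.0534), and passed in 10 of 26 alternatives. It passed without peroxide replicate 1, 2 or 3, at 2.94, 1.55 and 2.97 log2 units (limma adjusted p = 0.037, 0.029 and 0.0316). Plaur was lower in day 7 vehicle than in day 6 vehicle in every library, where 52.2% of tested genes had no overlap. The vehicle difference of -1.27 ± 0.64 log2 units missed the threshold (limma adjusted p = 0.161). It passed without peroxide replicate 2, which changes only the spread (limma adjusted p = 0.0105), and without both libraries that stood apart (-0.78, limma adjusted p = 0.000166). The latter carries the limit given above for these 2 libraries.

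Serpine2, on chromosome 1 (mm10, 79794197 to 79861180, minus strand), encodes the surface-bound inhibitor of thrombin and both activators. Its level was 103, 771 and 323 CPM after doxorubicin, against 23.0, 22.5 and 18.8 CPM in vehicle. Every doxorubicin library was above every vehicle library, where 59.7% of tested genes had no overlap. The doxorubicin libraries differed among themselves by 7.48-fold. Their mean was 399 ± 340 CPM, against 21.4 ± 2.31 CPM in vehicle, and the log2 fold change was 3.73 ± 0.57 (limma adjusted p = 0.000263). It was 4.48 without doxorubicin replicate 1, the lowest, and 3.04 without replicate 2, the highest. Only 0.422% of tested genes changed more, the smallest share among the 6 genes. After peroxide it had 82.9, 72.8 and 91.2 CPM, against 33.9, 14.1 and 13.5 CPM in vehicle. Peroxide libraries were close together and above all vehicle libraries, of which replicate 1 was the highest. In that comparison 59.9% of tested genes had no overlap. The peroxide mean of 82.3 ± 9.18 CPM was 4.01-fold above 20.5 ± 11.6 CPM in vehicle, a log2 fold change of 2.07 ± 0.57 (limma adjusted p = 0.0104).

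All doxorubicin libraries of Serpine2 were above all peroxide libraries, and the vehicle groups overlapped. The share of all tested genes that separate the treated groups was not counted. The difference between the effects was 1.65 ± 0.80 log2 units (limma adjusted p = 0.131, 95% interval -0.12 to 3.42), so it was not called. It passed without doxorubicin replicate 1 (2.41, limma adjusted p = 0.00655). In the doxorubicin group the coefficient of variation of Serpine2 was 85.3%, exceeded by 0.745% of tested genes, against a median of 11.1%. The other 5 genes varied by 2.78 to 9.43% there.

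Serpinb2, on chromosome 1 (mm10, 107511423 to 107535478, plus strand), encodes the largely intracellular inhibitor of both activators. It had 4.24, 3.51 and 3.97 CPM after doxorubicin, against 0.0493, 0 and 0 CPM in vehicle. These values correspond to an estimated 363 reads after doxorubicin and 1 read in vehicle. The ratio of their rates was 237, with an exact 95% interval of 42.3 to 9403 that covers counting error only. On the log2(CPM + 1) scale, which understates changes of weakly expressed genes, the log2 fold change was 2.27 ± 0.18 (limma adjusted p = 1.87e-06). After peroxide it had 0.631, 1.85 and 1.40 CPM, against 0.284, 0.0476 and 0.289 CPM in vehicle. Peroxide libraries were all above their vehicle, with replicate 1 the nearest to it, where 59.9% of tested genes had no overlap. Estimated reads were 104 after peroxide and 11 in vehicle, a ratio of 6.96 with an exact 95% interval of 3.73 to 14.4, and the log2 fold change was 0.90 ± 0.18 (limma adjusted p = 0.00172).

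The Serpinb2 effect was larger for doxorubicin, by 1.37 ± 0.26 log2 units (limma adjusted p = 0.00314), a call that carries the limit of the filter given above, since the doxorubicin libraries alone brought the gene into the test. All doxorubicin libraries exceeded all peroxide libraries in level, while the vehicle groups overlapped. How many other tested genes separate the treated groups was not counted. The annotated span of Serpinb10 overlaps that of Serpinb2 on the same strand. The principal Serpinb2 transcript shared 0% of its windows of 50 bases with transcripts of other genes. How reads in the overlap were assigned is not stated. Serpinb10 averaged 0.152 ± 0.0912 CPM after doxorubicin and 0 in vehicle, and 0.0704 ± 0.0965 CPM after peroxide and 0 in vehicle. Macrophages are a known source of both Serpinb2 and urokinase. The summed level of 10 leukocyte markers was 30.7 to 35.7 CPM after doxorubicin against 15.3 to 23.5 CPM in vehicle. After peroxide it was 27.1 to 30.6 CPM against 20.3 to 21.7 CPM in vehicle. Of these 10 markers 4 were tested. Of the 4, Lyz2 averaged 12.3 CPM after doxorubicin and 2.8 CPM in vehicle, and 13.3 CPM after peroxide and 1.81 CPM in vehicle, with log2 fold changes of 2.01 and 2.35 (limma adjusted p = 0.000678 and 0.000209). Cd68 was higher in both comparisons, by 0.77 and 0.68 (limma adjusted p = 0.00391 and 0.00791). Csf1r was higher by 0.58 after doxorubicin and changed by -0.57 after peroxide (limma adjusted p = 0.00453 for each). Cd14 changed by -0.60 and -0.31 (limma adjusted p = 0.0123 and 0.143). Adgre1 and Cd52 were at 0 in the doxorubicin group, and Itgam and Cd52 in its vehicle group. Tyrobp was at 0 in the peroxide group, and Ptprc, Adgre1, Itgam, Tyrobp and Cd52 in its vehicle group. The part of such cells in the Serpinb2 and Plau results was not tested.

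Serpinf1, on chromosome 11 (mm10, 75409769 to 75422701, minus strand), encodes the antiangiogenic serpin without protease inhibition and was the most abundant of the 6 transcripts. It had 1366, 1550 and 1469 CPM after doxorubicin, against 1152, 1085 and 770 CPM in vehicle. No library overlapped, as in 59.7% of tested genes, and vehicle replicate 3 was the lowest. The log2 fold change of 0.56 ± 0.30 missed the threshold (limma adjusted p = 0.138), and it passed without the 2 libraries that stood apart (0.38, limma adjusted p = 0.00508) and without peroxide replicate 2 alone (0.56, limma adjusted p = 0.00513). Both libraries were chosen after the data were seen and are the lowest for Serpinf1 in their groups, so leaving them out narrows its spread. After peroxide it had 1235, 458 and 1086 CPM, against 1010, 1149 and 1171 CPM in vehicle. The groups overlapped, with replicate 2 far below every other library. The log2 fold change was -0.38 ± 0.30 (limma adjusted p = 0.311), and 0.06 without peroxide replicate 2. The difference between the effects was 0.94 ± 0.42 log2 units (limma adjusted p = 0.104), and 1.21 without peroxide replicate 1 (limma adjusted p = 0.0447). It was 0.50 without peroxide replicate 2 (limma adjusted p = 0.0793), 0.32 without the 2 libraries that stood apart (limma adjusted p = 0.0786) and 0.37 without these and doxorubicin replicate 1 (limma adjusted p = 0.0297).

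**Figure D2:**
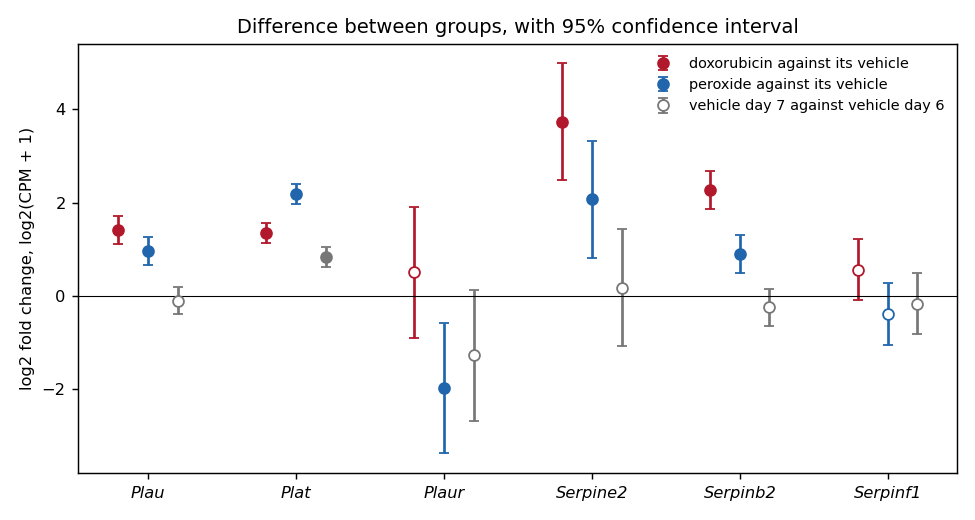
Difference between groups for each gene, as log2 fold change of log2(CPM + 1) with its 95% confidence interval (3 libraries per group); filled points have a limma adjusted p below 0.05 and open points do not. Plau, Plat, Serpine2 and Serpinb2 are above 0 for both treatments, Plaur is below 0 for peroxide, and Plat alone is filled in the comparison of vehicles.

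In the 2 libraries that stood apart, Plaur and Serpinf1 were low together. Peroxide replicate 2 was -2.80 log2 units from the other 2 peroxide libraries for Plaur and -1.34 for Serpinf1, and 0.181% and 2.8% of tested genes deviated further down. Doxorubicin vehicle replicate 3 was -1.47 log2 units from the others of its group for Plaur and -0.54 for Serpinf1, with 1.11% and 8.55% of genes further down. Transcripts of these genes had the highest GC content of the 6, 53.0% for Plaur and 54.4% for Serpinf1, against 39.3 to 48.3% in the others. A correction for GC content changed no call of the 6 genes. In peroxide replicate 2 the median deviation was 0.0451 log2 units for genes with 57.2% GC or more and -0.23 with 41.1% or less. In doxorubicin vehicle replicate 3 these medians were -0.113 and 0.0155. The part of GC content in the deviations was otherwise not tested. Serpine2 deviated in other libraries, by -2.27 log2 units in doxorubicin replicate 1 and by 2.07 in doxorubicin replicate 2. In peroxide vehicle replicate 1 it deviated by 1.24, and 99.3% of tested genes lay lower.

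**Figure D3:**
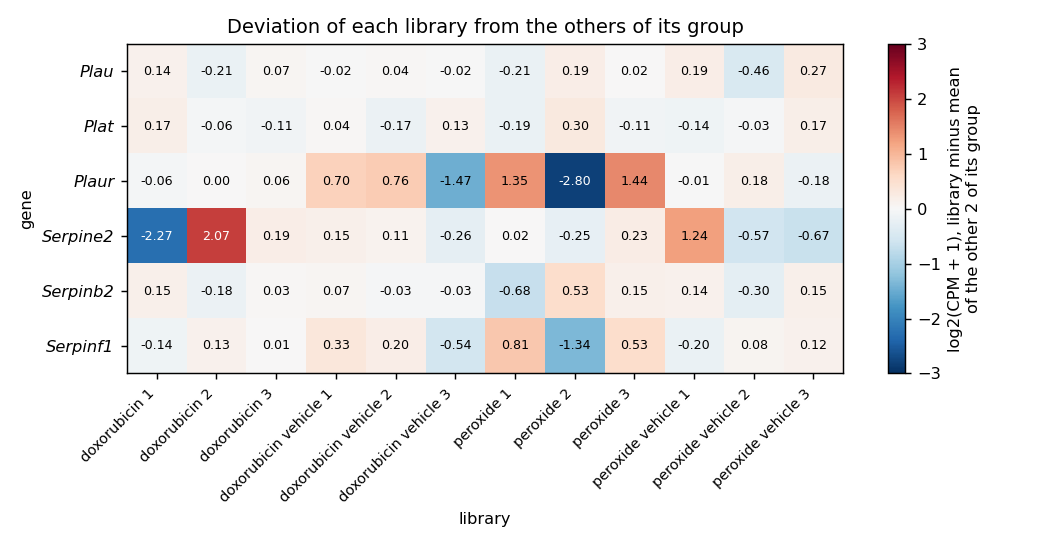
Deviation of each library (columns) from the mean of the other 2 libraries of its group, for each gene (rows), in log2(CPM + 1) units; red is higher and blue is lower. Plaur and Serpinf1 are lowest in peroxide replicate 2 (-2.80 and -1.34) and next lowest in doxorubicin vehicle replicate 3, and Serpine2 has opposite deviations in doxorubicin replicates 1 and 2.

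Levels of different genes were compared per kilobase of the principal annotated transcript. Plat was the more abundant activator in each library, making up 94.5 to 95.2% of the summed CPM per kb of Plat and Plau after doxorubicin and 95 to 95.7% in vehicle. It made up 95.8 to 96.2% after peroxide, against 90.2 to 93.1% in vehicle. Its mean level was 195 CPM per kb after doxorubicin and 76.6 CPM per kb in vehicle, and 196 CPM per kb after peroxide and 42.6 CPM per kb in vehicle. Serpine2 supplied nearly all of the inhibitor transcripts, with 181 CPM per kb after doxorubicin and 9.7 CPM per kb in vehicle, where Serpinb2 had 1.96 and 0.00824 CPM per kb. Serpinf1 was the highest in each group, at 798 CPM per kb after doxorubicin and 547 CPM per kb in vehicle, and at 506 CPM per kb after peroxide and 606 CPM per kb in vehicle.

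The summed level of Plat and Plau divided by that of Serpine2 and Serpinb2 describes the balance of activator and inhibitor transcripts. After doxorubicin it was 4.54, 0.568 and 1.32, against 7.82, 7.30 and 10 in vehicle. All doxorubicin libraries were lower than all vehicle libraries, and in replicate 2 inhibitor transcripts exceeded activator transcripts. After peroxide the ratio was 4.91, 6.87 and 4.61, against 2.86, 7.04 and 8.09 in vehicle, and the groups overlapped. With the length of all annotated exons in place of the principal transcript, the ratio after doxorubicin was 6.76, 0.911 and 2.10, against 12.6, 11.9 and 16.1 in vehicle. No test was made of this ratio, since it was built from genes already known to change, and transcript levels do not give enzyme activity.

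**Figure D4:**
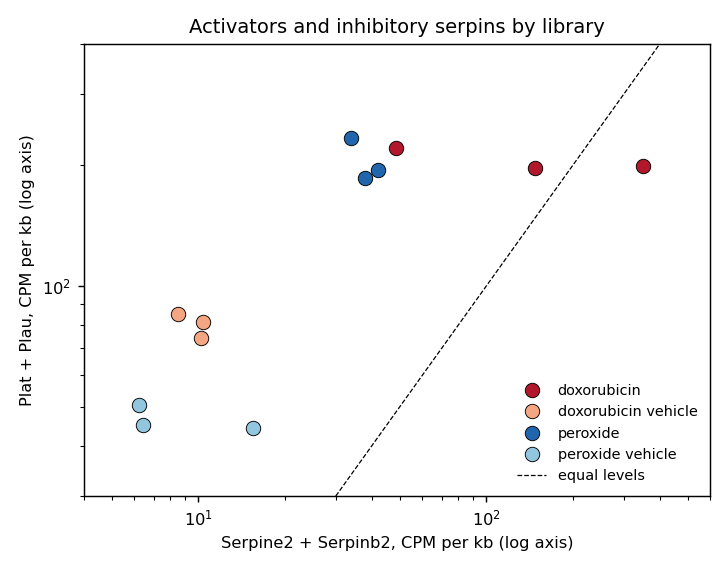
Summed Plat and Plau level (vertical) against summed Serpine2 and Serpinb2 level (horizontal) in CPM per kb, on log axes, for the 12 libraries; the dashed line marks equal levels. Treated libraries lie above their vehicles on the vertical axis, the 3 doxorubicin libraries spread from 48.7 to 350 CPM per kb on the horizontal axis, and replicate 2 is on the inhibitor side of the dashed line.

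Across the 12 libraries the levels of the rising genes moved together, as a description of libraries that share their treatments. Pearson correlations of log2(CPM + 1) were 0.96 for Plau with Serpinb2, 0.89 for Plau with Plat and 0.88 for Serpine2 with Serpinb2. Plaur correlated at 0.81 with Serpinf1 and at -0.53 with Plat. The tested genes most like Plau were Ms4a4d (0.985) and Igf1 (0.984), and those most like Plat were Ifi27 (0.998) and Rnase4 (0.997). Pros1 (0.986) and Rbm43 (0.981) were most like Serpine2, and Ifi44 (0.984) and Ifi211 (0.983) most like Serpinb2. Timm23 (0.992) and Tubb2b (0.990) followed Plaur, and Dlgap4 (0.979) and Plscr3 (0.970) followed Serpinf1. Igf1, a growth factor, averaged 25.0 CPM after doxorubicin and 5.2 CPM in vehicle, and 16.7 CPM after peroxide and 6.07 CPM in vehicle. Ifi27, an interferon-inducible gene, averaged 416 CPM after doxorubicin and 147 CPM in vehicle, and 381 CPM after peroxide and 84.3 CPM in vehicle.

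Plasminogen, the substrate of the activators, is known as a product of the liver. Plg was at 0 in the doxorubicin group and in both vehicle groups, and averaged 0.0507 CPM after peroxide, under the limit of 3 reads. Among plasminogen and its surface binding proteins, 4 of 6 genes were tested, of which 0 rose and 3 fell after doxorubicin and 1 rose and 1 fell after peroxide. Of all tested genes, 22.1% rose and 27.8% fell after doxorubicin and 27.3% rose and 23.4% fell after peroxide, so the peroxide count is near the background. The list's median log2 fold change was -0.40 and -0.22, against -0.03 and -0.01 over all tested genes. S100a10, which forms a plasminogen-binding complex with Anxa2, fell to 317 ± 35.9 CPM after doxorubicin, against 423 ± 8.51 CPM in vehicle (log2 fold change -0.42 ± 0.08, limma adjusted p = 0.0012). It fell to 310 ± 14.9 CPM after peroxide, against 403 ± 19.5 CPM in vehicle (-0.38 ± 0.08, limma adjusted p = 0.00218). Plgrkt, a membrane plasminogen receptor, changed by -0.42 ± 0.08 after doxorubicin and by 0.42 ± 0.08 after peroxide (limma adjusted p = 0.00106 and 0.00089), with 59.0 CPM against 79.1 CPM in vehicle and 74.8 CPM against 55.6 CPM in vehicle. Eno1, a glycolytic enzyme that also binds plasminogen, fell by 0.38 after doxorubicin (limma adjusted p = 0.0176). That call was lost without doxorubicin replicate 2, doxorubicin replicate 3 or doxorubicin vehicle replicate 3 (limma adjusted p = 0.0537, 0.0628 and 0.0669). Anxa2 changed by -0.26 after doxorubicin and -0.28 after peroxide and missed the threshold in both (limma adjusted p = 0.061 and 0.0509). Without peroxide replicate 2 it passed in both, with -0.26 and -0.41 (limma adjusted p = 0.00986 and 0.00177), and without doxorubicin replicate 1 likewise (limma adjusted p = 0.0335 and 0.0425). Without peroxide replicate 3 it passed after doxorubicin alone (limma adjusted p = 0.0421). The peroxide count of falling genes was 3 without peroxide replicate 2 and 2 without doxorubicin replicate 1.

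Of the receptor partners and clearance receptors, 13 of 17 were tested, and 8 rose and 2 fell after doxorubicin and 9 rose and 2 fell after peroxide. Of all tested genes, 22.1% rose and 27.8% fell in the first comparison and 27.3% rose and 23.4% fell in the second. Among the rises in each was Vtn, which reached the expression filter only through treated libraries. The filter thus favoured its rise, and it adds nothing to these counts. The list's median log2 fold change was 0.63 and 0.77, against -0.03 and -0.01 over all tested genes. Egfr, which can signal together with the urokinase receptor, averaged 73.4 ± 5.06 CPM after doxorubicin and 21.6 ± 2.71 CPM in vehicle (1.72 ± 0.17, limma adjusted p = 8.02e-06). After peroxide it averaged 69.5 ± 18.0 CPM, and 22.8 ± 0.75 CPM in vehicle (1.53 ± 0.17, limma adjusted p = 1.84e-05). Igf2r, a lysosomal sorting receptor that binds the urokinase receptor, rose by 0.77 and 0.87. Itgb3, the beta subunit of a vitronectin receptor, rose by 1.24 ± 0.09 after peroxide (limma adjusted p = 1.14e-06) and changed by -0.13 after doxorubicin (limma adjusted p = 0.29). Vldlr, which clears inhibitor complexes, fell to 20.2 CPM after doxorubicin, against 54.4 CPM in vehicle (-1.38 ± 0.08, limma adjusted p = 2.1e-07), and by 0.26 after peroxide (limma adjusted p = 0.0231), a call lost in 9 of 26 alternatives. Among these were the fits without peroxide replicate 1 or 2 or peroxide vehicle replicate 1 or 3 (limma adjusted p = 0.065, 0.0657, 0.0899 and 0.0592). The peroxide count of falling genes was 0 when any 1 of these 4 libraries was left out. It was 1 without peroxide vehicle replicate 2, doxorubicin replicate 3 or any 1 doxorubicin vehicle library. The doxorubicin count of falling genes was 1 without doxorubicin replicate 3 or doxorubicin vehicle replicate 2 or 3.

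Other serpins had 14 of 33 genes tested, and 6 rose and 4 fell after doxorubicin, against 9 risen and 3 fallen after peroxide. The shares over all tested genes were 22.1% higher and 27.8% lower after doxorubicin, near the list's share of falls, and 27.3% higher and 23.4% lower after peroxide. Its median log2 fold change was 0.18 and 0.93, against -0.03 and -0.01 over all. Serpinb6c, which was higher in both, and Serpini1, called higher after peroxide, reached the filter only through treated libraries. The filter thus favoured their rises, and they support neither count. After doxorubicin Serpini1 changed by -0.01 (limma adjusted p = 0.964). Serping1, the inhibitor of complement protease C1, averaged 42.7 ± 3.14 CPM after doxorubicin and 1.89 ± 0.377 CPM in vehicle (3.92 ± 0.12, limma adjusted p = 1.3e-09). After peroxide it averaged 17.6 ± 1.58 CPM, and 1.38 ± 0.0118 CPM in vehicle (2.96 ± 0.12, limma adjusted p = 1.12e-08). Serpinb1a, an inhibitor of neutrophil proteases, fell to 76.0 CPM after doxorubicin, against 122 CPM in vehicle (-0.68 ± 0.10, limma adjusted p = 0.00023). It rose to 155 CPM after peroxide, against 42.9 CPM in vehicle (1.84 ± 0.10, limma adjusted p = 1.09e-07). Serpinb9b rose by 1.07 after doxorubicin and by 0.94 after peroxide. Serpinb6c averaged 8.24 CPM after doxorubicin and 0.826 CPM in vehicle, and 5.29 CPM after peroxide and 0.219 CPM in vehicle, with the limit just given. These clade B genes have close relatives in tandem arrays, so how reads were shared among them is uncertain.

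The coagulation genes had 8 of 26 tested, and 7 rose and 0 fell after doxorubicin, against 4 risen and 0 fallen after peroxide. Of all tested genes, 22.1% rose and 27.8% fell after doxorubicin and 27.3% rose and 23.4% fell after peroxide. Without doxorubicin replicate 1 or 2, 1 was called lower after peroxide. Their median log2 fold change was 1.46 after doxorubicin and 0.62 after peroxide, against -0.03 and -0.01 over all tested genes. Thbd, the thrombin receptor that turns on protein C, averaged 138 ± 18.0 CPM after doxorubicin and 21.1 ± 7.35 CPM in vehicle (2.71 ± 0.26, limma adjusted p = 7.99e-06), and changed by 0.21 after peroxide (limma adjusted p = 0.519). Procr, the protein C receptor, rose by 0.99 after doxorubicin and 2.20 after peroxide. Tfpi2, a Kunitz inhibitor of plasmin, averaged 9.43 ± 0.634 CPM after doxorubicin and 1.64 ± 0.091 CPM in vehicle, and 13 ± 0.555 CPM after peroxide and 4.03 ± 0.37 CPM in vehicle. Tfpi, the inhibitor of the tissue factor pathway, rose by 0.89 and 0.76.

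Among other serine proteases, 8 of 18 were tested, and 4 rose and 1 fell after doxorubicin, against 6 risen and 0 fallen after peroxide. These stand beside 22.1% risen and 27.8% fallen, and 27.3% risen and 23.4% fallen, over all tested genes. In each comparison 3 of the rises were Fap, Prss12 and Prss35, which reached the filter only through treated libraries. The filter thus favoured these rises, and they add nothing to the counts. The median log2 fold change was 0.43 and 0.55, against -0.03 and -0.01 over all. The first count was 7 without peroxide replicate 2 and 7 with median-of-ratios scaling. Prss23, a secreted protease, averaged 289 ± 10.2 CPM after doxorubicin and 98.0 ± 1.36 CPM in vehicle (1.55 ± 0.06, limma adjusted p = 3.68e-09), and rose by 0.63 after peroxide. Fap, a membrane protease of activated fibroblasts, averaged 2.69 CPM after doxorubicin and 1.09 CPM in vehicle, and 4.76 CPM after peroxide and 0.413 CPM in vehicle, with log2 fold changes of 0.87 and 2.03. Htra3 fell by 0.63 after doxorubicin and rose by 0.40 after peroxide. Prss35 averaged 0.948 CPM after doxorubicin and 0.449 CPM in vehicle, and 1.76 CPM after peroxide and 0.233 CPM in vehicle. Its log2 fold changes of 0.42 (limma adjusted p = 0.0308, lost in 9 of 24 alternatives) and 1.17 are under the same limit of the filter. The doxorubicin call was lost without doxorubicin replicate 2 or 3 or doxorubicin vehicle replicate 1 or 3 (limma adjusted p = 0.0786, 0.112, 0.095 and 0.0812).

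Substrates of plasmin or urokinase had 11 of 15 tested, and 8 rose and 0 fell after doxorubicin, against 8 risen and 1 fallen after peroxide. Over all tested genes, 22.1% rose and 27.8% fell after doxorubicin and 27.3% rose and 23.4% fell after peroxide. Mmp3, counted among both sets of rises, reached the filter only through treated libraries. The filter thus favoured its rise, and it adds nothing to these counts. Their median log2 fold change was 0.68 and 0.75, against -0.03 and -0.01 over all. The doxorubicin count was 5 without doxorubicin replicate 2 and 5 without replicate 3. Fn1, the matrix protein fibronectin that plasmin cuts, averaged 3810 ± 72.6 CPM after doxorubicin and 1000 ± 13.4 CPM in vehicle (1.93 ± 0.06, limma adjusted p = 1.57e-09). After peroxide it averaged 2589 ± 119 CPM, and 969 ± 57.3 CPM in vehicle (1.42 ± 0.06, limma adjusted p = 1.88e-08). Mmp2, a gelatinase, rose by 1.24 and 1.95. Hgf, a growth factor matured by urokinase, rose by 1.30 after doxorubicin and changed by 0.24 after peroxide (limma adjusted p = 0.103). Mmp3, a proenzyme cut by plasmin, had 1.41 ± 0.207 CPM after doxorubicin and 0.706 ± 0.297 CPM after peroxide, and was at 0 in all libraries of both vehicle groups. Igfbp5, a growth factor binding protein cut by plasmin, averaged 150 ± 9.16 CPM after peroxide and 9.19 ± 2.12 CPM in vehicle (3.91 ± 0.17, limma adjusted p = 1.73e-08), and changed by 0.40 after doxorubicin (limma adjusted p = 0.0624). The doxorubicin change passed without doxorubicin replicate 1 (0.49, limma adjusted p = 0.0485) and without peroxide vehicle replicate 2 (0.40, limma adjusted p = 0.0266).

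**Figure D5:**
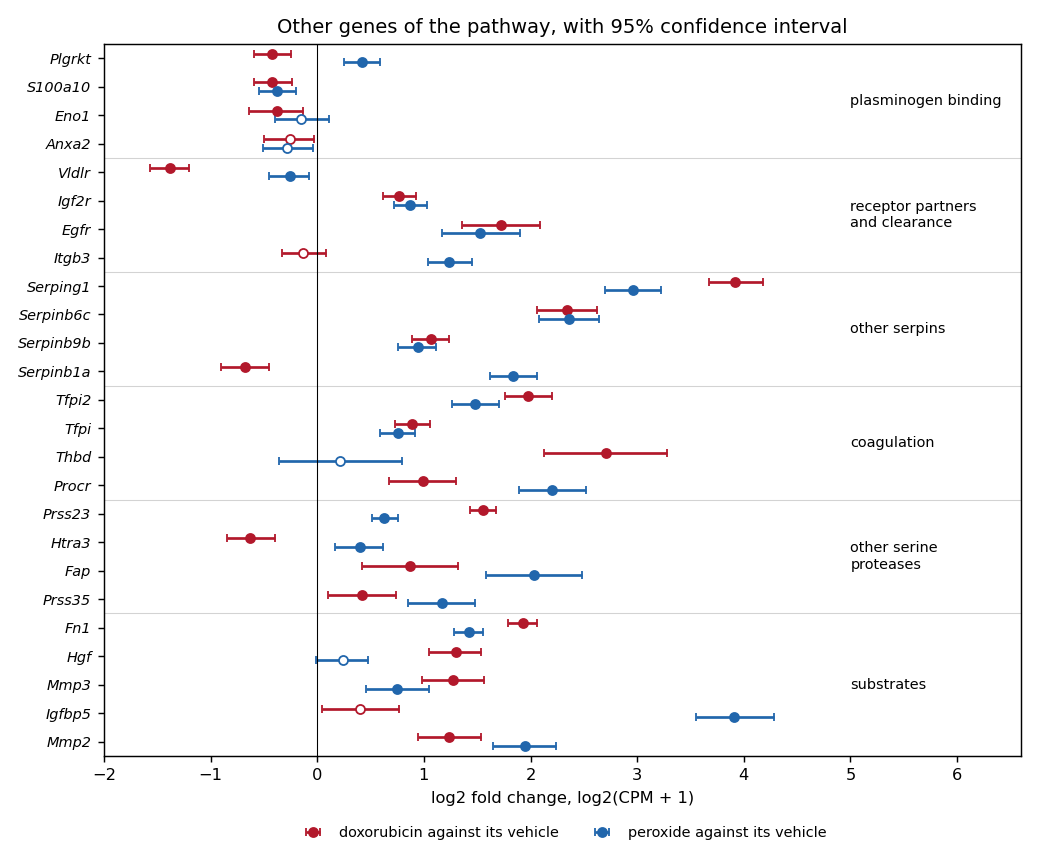
Log2 fold change of log2(CPM + 1) for the named genes of the 6 other lists, with 95% confidence intervals (3 libraries per group); filled points have a limma adjusted p below 0.05 and open points do not. Serping1 has the largest rise after doxorubicin (3.92), Igfbp5 the largest after peroxide (3.91), and Plgrkt, Serpinb1a, Htra3 and Itgb3 lie on opposite sides of 0 in the treatments, Itgb3 with an open point after doxorubicin (-0.13).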

How the data were processed

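RNA of 12 libraries (4 groups of 3) was sequenced by the authors, who deposited 1 table of CPM (counts per 1e+06 reads assigned to genes). Per the submitters' processing notes, bcl2fastq and DRAGEN were used with mm10 (no versions). How reads were counted, and on which annotation, is not given in the sources used here. Of its 55774 lines, 287 repeats, identical for all 168 repeated identifiers, were dropped. Depth was read from the CPM step of 1 read. Of values up to 20 reads, 74.7 to 79.9% were whole (tolerance 0.001 read), so whole reads were not recovered and no count model was run.

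Testing covered the 13280 genes that reached 1 CPM in 3 or more libraries, on log2(CPM + 1) with limma 3.58.1 in R 4.3.3, using a mean-variance trend, 4 group means, 8 residual degrees of freedom, two-sided tests and Benjamini-Hochberg adjustment over all tested genes. Doxorubicin and peroxide were each set against their vehicle, their effects against each other, and day 7 vehicle against day 6 vehicle. The model was tested on simulated data. Positions and lengths came from GENCODE M21, promoters from RefSeq, by Python 3.11.15 with pandas 2.3.3, numpy 2.4.6, scipy 1.17.1 and matplotlib 3.10.9.

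The 6 genes and the lists were chosen with earlier results of these data known. Named beside the 6 were the 3 genes of each list with the smallest adjusted p in each treatment comparison, and for each of the 6 the 2 genes with the highest Pearson correlation, without predicted gene models. Other genes in the text, among them Plg, Serpinb10 and Tek, were chosen after their values were seen. Alternatives covered pseudocounts of 0.1 and 2, filters, scalings, variance models, separate fits, a replicate block, a stricter threshold and leaving out each library. Added after the data were seen were leaving out 2 or 3 deviating libraries and a GC correction.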

Additional observations from a re-analysis of the deposited data

Results flagged for a closer look

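The effects of doxorubicin and peroxide, each against its own vehicle, differed past the limma threshold for 18 of the 31 genes tested for it (the 6 plasminogen activation genes and those named from the lists), where 33.6% of all tested genes did. The list genes were named for small adjusted p in the treatment comparisons, so this share supports nothing about the lists. Values are log2 fold changes after doxorubicin minus those after peroxide, and the treatments also differed in day, exposure and vehicle group, which cannot be told apart from the agent. Plat had a difference of -0.84 and Serpinb2 one of 1.37. For Plat the treated groups overlapped in level and the vehicle groups did not, while for Serpinb2 the treated groups were apart and the vehicle groups overlapped. Of all tested genes 52.2% had no overlap between the vehicles, and the share between the treated groups was not counted. Serpinb2, and Fap and Prss35 below, reached the expression filter only through treated libraries, which limits these calls.

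Effects were more positive for doxorubicin in Thbd (2.49), Hgf (1.06), Serping1 (0.96), Prss23 (0.92), Tfpi2 (0.51) and Fn1 (0.51). They were more negative for doxorubicin in Igfbp5 (-3.51), Serpinb1a (-2.51), Itgb3 (-1.37), Procr (-1.22), Fap (-1.16), Vldlr (-1.12), Htra3 (-1.02), Plgrkt (-0.84), Prss35 (-0.74) and Mmp2 (-0.70). For Mmp2 and Prss35 the difference missed the threshold without the 2 deviating libraries, and for Tfpi2 it did in 4 of 25 alternatives.

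Of the 18 genes, 13 were also called between the vehicles, day 7 against day 6. Over all tested genes 28% were called there, 15.1% higher and 12.9% lower. The difference between effects contains the vehicle comparison with its sign reversed. Genes picked by that difference therefore tend to be called between the vehicles in the opposite direction, and the count is no separate evidence about the vehicles. Higher on day 7 were Igfbp5 (2.74), Serpinb1a (1.5), Htra3 (1.08), Mmp2 (0.86), Plat (0.84), Vldlr (0.78), Itgb3 (0.58), Procr (0.52) and Plgrkt (0.50). Lower on day 7 were Thbd (-1.03), Tfpi2 (-0.93), Hgf (-0.89) and Prss23 (-0.76).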

How the results depend on the processing

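Over 27 alternatives the 4 rising genes kept their direction and their calls after either treatment wherever they were tested, except Serpine2 after peroxide at an adjusted p of 0.01. After doxorubicin 4 to 5 genes were called higher when a library was left out and 3 to 5 otherwise, the 3 with a filter of 5 CPM, which leaves Serpinb2 untested. The 1 gene called lower after peroxide, Plaur, fell to 0 with no filter, an adjusted p of 0.01 and separate fits, and ranged from 0 to 1 when a library was left out. The 1 gene called higher in the difference between effects, Serpinb2, was 2 genes with a pseudocount of 2, median-of-ratios, upper quartile or quantile scaling and without the 2 deviating libraries, 4 with array weights or without 3 libraries, 0 with a filter of 5 CPM, and 1 to 3 when a library was left out. For the vehicles, 0 genes were called lower on day 7, and 1 with array weights or without 2 or 3 libraries, with 0 to 1 when a library was left out.

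Same-numbered libraries did not deviate together in each pair (r of -0.31 to 0.19 for doxorubicin and -0.24 to 0.14 for peroxide). With 3 libraries per group this check cannot exclude a pairing by replicate number, and the main fit used none. With a replicate block 4 genes rose after doxorubicin and 4 rose and 1 fell after peroxide. Over all genes, the difference between effects had 1796 genes higher and 2665 lower, against 2116 and 1953 with median-of-ratios scaling, 2847 higher with array weights, 623 and 1318 at an adjusted p of 0.01, and 1098, 1190 and 1142 higher without doxorubicin replicate 3, doxorubicin vehicle replicate 3 or peroxide vehicle replicate 1. The vehicle comparison had 2001 higher and 1718 lower, against 1124 and 918 at 0.01, and 2694 lower with array weights. Quantile scaling moved the median of all genes to -0.11 after doxorubicin and to -0.14 in the difference. The cause of these changes was not tested. With 3 libraries per group, a gene that missed the threshold is not shown to be unchanged, and Serpinb2 in doxorubicin vehicle rests on 1 read.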
